A study of Homo sapiens with 12 samples.

Results

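The 10 genes described here encode proteins that shape the nucleus and its chromatin. They are the lamins LMNA, LMNB1 and LMNB2, the lamina-binding membrane proteins LBR and TMPO, and the high mobility group (HMG) proteins HMGB1, HMGB2, HMGB3, HMGA1 and HMGN2. They were chosen by symbol, out of 23617 gene symbols in the table of Granta-519 cells and 23615 in the table of JeKo-1 cells, and each stands on 1 row in each table. All 10 passed the filter on low values in both tables. Both lines come from mantle cell lymphoma, a B-cell cancer usually driven by a translocation of CCND1, the gene of cyclin D1. Cells carried a lentiviral shRNA that targets this gene (shCycD1) or a control shRNA (shCtrl), and all had been selected with puromycin. Each line had 3 shCycD1 and 3 shCtrl libraries of polyadenylated RNA, 12 in all, named as biological replicates of the same line. No source used here gives the shRNA sequence or the time after infection.

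The lamina is a meshwork of intermediate filaments under the inner nuclear membrane. LMNA encodes the A-type lamins, which are sparse in lymphocytes, and LMNB1 and LMNB2 encode the B-type lamins, which stay anchored to the membrane by a farnesyl tail. LBR spans the inner membrane, binds B-type lamins and heterochromatin, and also carries a sterol reductase activity. TMPO encodes the LAP2 proteins, some of which span the membrane while the alpha form lies in the nuclear interior and binds A-type lamins. HMGB proteins bend DNA through HMG boxes, HMGA1 binds AT-rich DNA through AT hooks, and HMGN2 binds nucleosomes. Loss of LMNB1 and of HMGB2 is a familiar feature of senescent fibroblasts in culture.

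Promoter sequences from RefSeq (build GRCh38.p14) were used for 9 of the 10 genes, in 17 windows, each from 250 bases before to 50 bases after an annotated start. HMGB2 is named only. Letters of 3 motif classes linked to cell cycle genes were searched on both strands. They are the CCAAT box, the core of the cell cycle homology region with the letters TTTGAA, and the E2F words TTTCCCGC, TTTGGCGC, TTTCGCGC and TTTGCCGC. No motif word contains another. CCAAT was in 10 of 17 windows, against 34.6% of all 35116 promoter windows, and these 10 belong to LMNA, LMNB1, TMPO, HMGB1, HMGB3, HMGA1 and HMGN2. TTTGAA was in 3 of 17 windows, against 15.2%, and an E2F word in 1 of 17, against 3.31%. Some windows of 1 gene overlap, and a match is a description of letters, not a shown binding site. Printed below are LMNA, whose level did not pass the test in either line, and 4 genes that fell in both, on the gene's strand, 5′ to 3′. Each of these genes had several windows, and a window with motifs was picked for print. The other windows of LMNA, LMNB1 and HMGB3 held none of these motifs. TMPO had an overlapping window with the same boxes. HMGB1 also had a window with CCAAT and TTTGAA and a window with no motif. Capitals mark the motifs, on either strand, so that ATTGG is CCAAT on the opposite strand. They lie at chr1:156082323-156082622 on the plus strand (LMNA), chr5:126776886-126777185 on the plus strand (LMNB1), chr12:98515323-98515622 on the plus strand (TMPO), chr13:30465887-30466186 on the minus strand (HMGB1) and chrX:150983085-150983384 on the plus strand (HMGB3).
LMNA: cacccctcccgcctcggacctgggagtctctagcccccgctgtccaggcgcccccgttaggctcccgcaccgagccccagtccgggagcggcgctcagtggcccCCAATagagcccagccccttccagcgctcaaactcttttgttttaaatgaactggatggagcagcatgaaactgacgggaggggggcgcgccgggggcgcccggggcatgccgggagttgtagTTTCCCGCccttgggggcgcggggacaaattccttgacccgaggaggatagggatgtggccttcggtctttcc
LMNB1: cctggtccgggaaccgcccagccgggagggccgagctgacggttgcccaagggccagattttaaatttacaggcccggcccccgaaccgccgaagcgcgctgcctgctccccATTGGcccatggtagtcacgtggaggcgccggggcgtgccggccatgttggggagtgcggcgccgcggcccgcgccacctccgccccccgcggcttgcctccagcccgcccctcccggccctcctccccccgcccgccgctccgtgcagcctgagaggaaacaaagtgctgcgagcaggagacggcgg
TMPO: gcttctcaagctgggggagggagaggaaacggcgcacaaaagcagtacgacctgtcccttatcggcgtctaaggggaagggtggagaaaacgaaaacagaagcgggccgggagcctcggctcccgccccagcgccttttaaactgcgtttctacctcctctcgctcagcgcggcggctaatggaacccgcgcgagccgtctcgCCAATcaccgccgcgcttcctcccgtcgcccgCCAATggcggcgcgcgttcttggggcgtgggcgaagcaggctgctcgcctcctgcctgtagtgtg
HMGB1: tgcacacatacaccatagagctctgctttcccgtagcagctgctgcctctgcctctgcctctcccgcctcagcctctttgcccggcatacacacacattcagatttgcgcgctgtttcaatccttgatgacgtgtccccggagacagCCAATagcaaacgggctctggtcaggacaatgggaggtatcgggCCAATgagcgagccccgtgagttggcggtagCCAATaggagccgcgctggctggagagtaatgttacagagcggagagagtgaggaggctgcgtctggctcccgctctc
HMGB3: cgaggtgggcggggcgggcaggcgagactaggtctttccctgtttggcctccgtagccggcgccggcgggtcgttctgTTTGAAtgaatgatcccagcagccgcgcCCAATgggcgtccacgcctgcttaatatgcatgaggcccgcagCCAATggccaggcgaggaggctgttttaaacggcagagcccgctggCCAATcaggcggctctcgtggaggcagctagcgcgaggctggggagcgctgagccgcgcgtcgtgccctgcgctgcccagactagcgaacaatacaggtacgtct
Of the printed windows, that of TMPO held CCAAT at -47 and -15 relative to the start. That of HMGB1 held it at -103, -59 and -28, and that of HMGB3 at -144, -101 and -55. The HMGB3 window also held TTTGAA at -172. The LMNB1 window held CCAAT on the opposite strand at -138. The printed LMNA window held CCAAT at -146 and the E2F word TTTCCCGC at -23.

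The silenced gene itself checks the labels. CCND1 averaged 268 ± 47.3 RPKM (reads per kilobase, scaled to the reads of the library) in shCycD1 and 947 ± 87.2 RPKM in shCtrl Granta-519 cells (SD, n = 3 each). It averaged 65.9 ± 1.39 RPKM in shCycD1 and 347 ± 42.3 RPKM in shCtrl JeKo-1 cells (SD, n = 3 each). Between libraries of a group, values correlated across genes with an r of 0.981 to 0.988 for Granta-519 and 0.968 to 0.974 for JeKo-1. All 7 B-cell markers checked were at 1 RPKM or more in at least 1 library of both lines. Their summed level was 2178 to 2260 RPKM in shCycD1 and 2386 to 2502 RPKM in shCtrl Granta-519 cells, and 1283 to 1456 RPKM in shCycD1 and 914 to 1051 RPKM in shCtrl JeKo-1 cells. Of other cells, 6 T and NK cell markers summed to 1.12 to 1.34 RPKM in shCycD1 and 0.98 to 1.44 RPKM in shCtrl Granta-519 cells, and to 2.40 to 2.63 RPKM in shCycD1 and 2.32 to 3.01 RPKM in shCtrl JeKo-1 cells. The 6 myeloid markers summed to 53.2 to 58.5 RPKM in shCycD1 and 57.5 to 64.4 RPKM in shCtrl Granta-519 cells, mostly CSF1R and CD68 with MPO at 0, and to 3.60 to 4.24 RPKM in shCycD1 and 3.50 to 4.57 RPKM in shCtrl JeKo-1 cells, with MPO and FCGR3A at 0. The 9 epithelial and fibroblast markers summed to 11.97 to 14.3 RPKM in shCycD1 and 9.23 to 13.0 RPKM in shCtrl Granta-519 cells, and to 2.19 to 2.94 RPKM in shCycD1 and 2.16 to 2.74 RPKM in shCtrl JeKo-1 cells. Their part in the results was not tested. Depth per library is not settled for Granta-519 and unknown for JeKo-1.

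Of the 10 genes, 9 fell on silencing in Granta-519 and 9 fell in JeKo-1, with LMNA the exception in both and none rising. This was called at a Benjamini-Hochberg adjusted p under 0.05 in limma, fitted in each line on log2(RPKM + 0.5). Among all genes tested, 18.2% fell in Granta-519 (2303 of 12668) and 27.8% fell in JeKo-1 (3303 of 11866), and 22.4% and 36.7% rose, so that 40.6% and 64.6% were called in either direction. The median log2 change of the 10 genes was -1.11 in Granta-519 and -1.99 in JeKo-1, beside medians of 0.03 and 0.09 over all genes tested. In each line 7 of the 10 had a log2 change of -1 or lower. Over all genes tested, 4.53% had a lower change than HMGA1 in Granta-519 (-0.86) and 7.90% in JeKo-1 (-0.94). No larger share than this reached -1. All shCycD1 libraries lay below all shCtrl libraries for 9 of 10 genes in Granta-519 (24.2% of all genes) and for 10 of 10 in JeKo-1 (30.5%). These values are shares of the RNA of each library, and fewer cells of a kind cannot be told apart from less RNA per cell. Under scaling by spike-in RNAs only HMGB2 was still called lower in Granta-519, and LMNB2 stood at 0.04 there and LMNA at 0.69. Those values are taken up with the other readings of the tables. The log base of the JeKo-1 table is inferred as natural. Read as log2, it still gave 9 fallen genes, with a smaller median of -1.40.

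**Figure D1:**
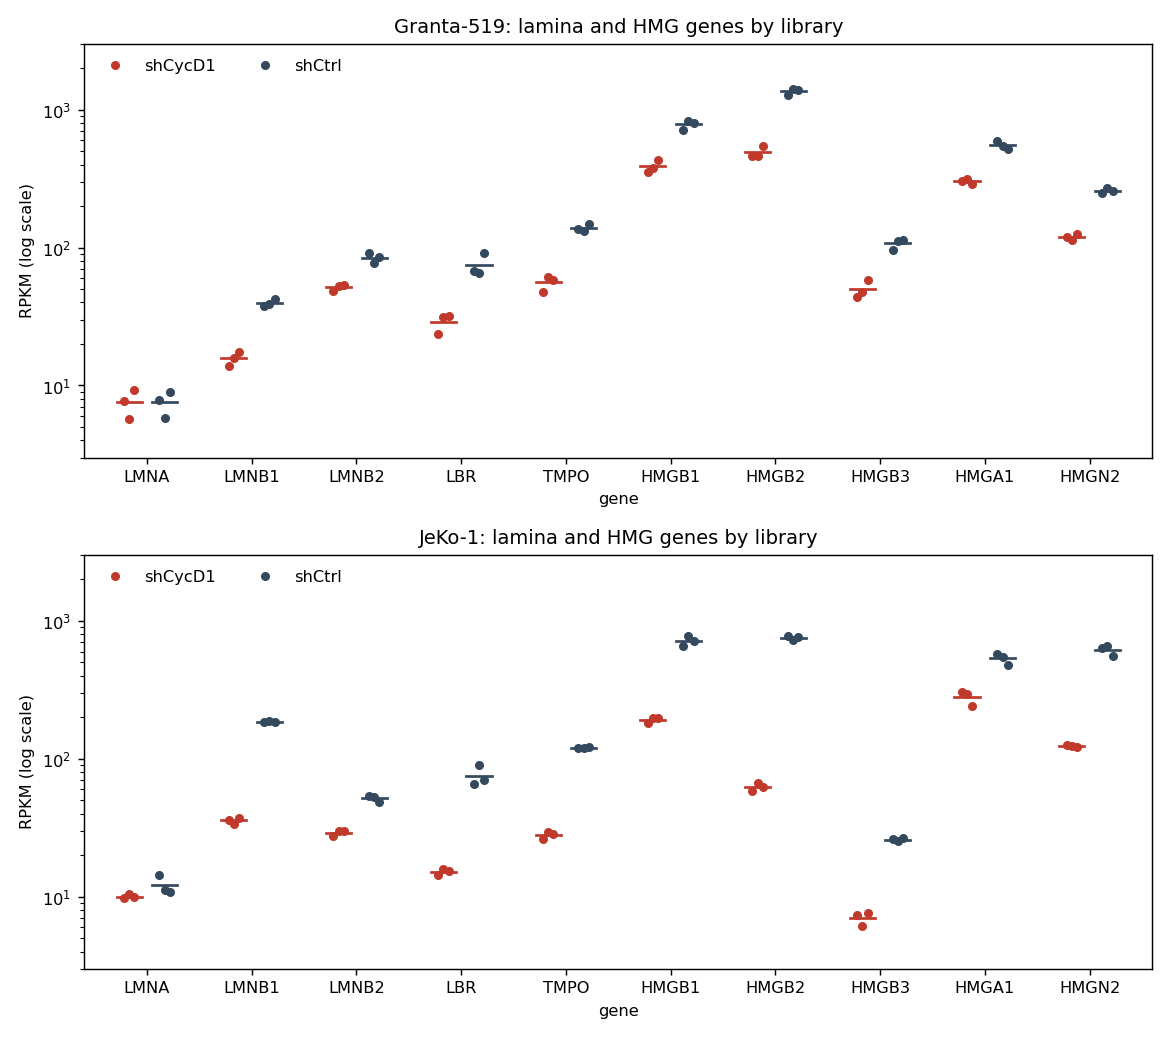
Level of the 10 genes by library, as RPKM on a log axis, with Granta-519 and JeKo-1 in separate panels and shCycD1 left of shCtrl for each gene. Points are libraries and bars are means (n = 3 per group); the groups are apart for every gene but LMNA in Granta-519. Levels are not to be compared between panels or between genes. The gene lengths behind the JeKo-1 values are not settled. Those behind Granta-519 were inferred to be genomic spans, introns included, and exon lengths were not tried.

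The lamins did not move together. LMNB1 had 13.8, 15.8 and 17.5 RPKM in shCycD1 Granta-519 cells, against 38.0, 39.1 and 42.1 RPKM in shCtrl cells. In JeKo-1 cells LMNB1 had 35.9, 33.8 and 37.5 RPKM in shCycD1 cells, against 185, 187 and 186 RPKM in shCtrl cells. The groups were far apart in both lines, and the shCtrl libraries of JeKo-1 were nearly level. LMNB1 fell by 1.32 ± 0.10 on the log2 scale in Granta-519 (SE, limma, adjusted p = 0.000241), to 39.5% of the shCtrl mean. In JeKo-1 it fell by 2.37 ± 0.07 (adjusted p = 8.50e-07), to 19.2%. With spike-in scaling the Granta-519 change of LMNB1 was -0.59 and was not called. The other B-type lamin is LMNB2, whose ratio to LMNB1 is given with the ratios between genes.

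LMNB2 had 48.8, 52.5 and 53.5 RPKM in shCycD1 Granta-519 cells, against 90.8, 77.5 and 85.0 RPKM in shCtrl cells. The JeKo-1 values were 27.6, 29.7 and 30.1 RPKM in shCycD1 cells, against 53.4, 52.9 and 48.6 RPKM in shCtrl cells. The lowest shCtrl library stood above the highest shCycD1 library in both lines. Its log2 change was -0.70 ± 0.08 in Granta-519 (SE, limma, adjusted p = 0.000944), a direction lost under spike-in scaling, and -0.81 ± 0.07 in JeKo-1 (adjusted p = 9.02e-05). The shCycD1 means were 61.1% and 56.5% of the shCtrl means.

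LMNA, the source of lamins A and C, had 7.74, 5.68 and 9.21 RPKM in shCycD1 Granta-519 cells, against 7.90, 5.79 and 8.97 RPKM in shCtrl cells. JeKo-1 libraries had LMNA at 9.79, 10.4 and 9.91 RPKM in shCycD1 cells, against 14.3, 11.2 and 10.9 RPKM in shCtrl cells. The groups overlapped fully in Granta-519, and in JeKo-1 they were narrowly apart, with the first shCtrl library highest. The log2 change was -0.01 ± 0.21 in Granta-519 (SE, limma, adjusted p = 0.985) and -0.25 ± 0.12 in JeKo-1 (adjusted p = 0.0931). Neither passed the test, which does not show that LMNA stayed level. With quantile normalization the JeKo-1 value was -0.33 (adjusted p = 0.0428) and with a correction for GC content it was -0.73 (adjusted p = 0.000235), both called, over alternatives from 0.000235 to 0.334.

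LBR had 23.7, 31.5 and 31.9 RPKM in shCycD1 Granta-519 cells, against 68.1, 65.2 and 91.7 RPKM in shCtrl cells. In JeKo-1 cells LBR had 14.3, 15.9 and 15.3 RPKM in shCycD1 cells, against 65.7, 90.6 and 70.5 RPKM in shCtrl cells. The shCtrl libraries were the more spread, with a different replicate highest in each line, and no groups overlapped. LBR fell by 1.35 ± 0.17 in Granta-519 (log2, SE, limma, adjusted p = 0.00116) and by 2.27 ± 0.13 in JeKo-1 (adjusted p = 8.96e-06). Its Granta-519 change was -0.61 with spike-in scaling and was not called. TM7SF2, which shares the sterol reductase part of LBR but not its lamin-binding head, moved the other way. It averaged 119.7 ± 12.6 RPKM in shCycD1 and 64.9 ± 4.50 RPKM in shCtrl Granta-519 cells, and 29.6 ± 5.59 RPKM in shCycD1 and 13.6 ± 2.07 RPKM in shCtrl JeKo-1 cells (SD, n = 3 each). TM7SF2 rose by 0.87 (adjusted p = 0.000864) and by 1.08 (adjusted p = 0.000798). It was chosen as the relative of LBR and not by the rule for named genes.

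TMPO had 47.5, 61.5 and 58.7 RPKM in shCycD1 Granta-519 cells, against 136, 131 and 148 RPKM in shCtrl cells. The JeKo-1 values were 26.4, 29.3 and 28.3 RPKM in shCycD1 cells, against 119, 121 and 122 RPKM in shCtrl cells. Every shCtrl library was above the highest shCycD1 library in both lines, and the shCtrl libraries of JeKo-1 were close together. TMPO fell by 1.31 ± 0.11 in Granta-519 (log2, SE, limma, adjusted p = 0.00031), to 40.3% of the shCtrl mean. In JeKo-1 it fell by 2.09 ± 0.07 (adjusted p = 9.99e-07), to 23.2%. Its Granta-519 change was -0.57 with spike-in scaling and was not called. The table gives a single value per gene, so the membrane and interior forms of LAP2 could not be separated.

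HMGB2 had the lowest log2 change of the 10 genes in both lines. It had 463, 464 and 548 RPKM in shCycD1 Granta-519 cells, against 1277, 1425 and 1388 RPKM in shCtrl cells. JeKo-1 libraries had HMGB2 at 58.6, 67.2 and 62.9 RPKM in shCycD1 cells, against 772, 726 and 767 RPKM in shCtrl cells. The groups did not overlap in either line, and no library stood apart from its group. HMGB2 fell by 1.47 ± 0.09 in Granta-519 (log2, SE, limma, adjusted p = 0.000187), to 36.1% of the shCtrl mean, and by 3.58 ± 0.07 in JeKo-1 (adjusted p = 5.31e-07), to 8.33%. Counted from the lowest change of all genes tested, it stood at place 82 of 12668 in Granta-519 and at place 26 of 11866 in JeKo-1. Its JeKo-1 change was -2.51 with that table read as log2.

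HMGB1 is both a DNA-bending chromatin protein and a signal released by dying cells. It had 356, 379 and 434 RPKM in shCycD1 Granta-519 cells, against 719, 824 and 808 RPKM in shCtrl cells. In JeKo-1 cells HMGB1 had 181, 196 and 198 RPKM in shCycD1 cells, against 657, 784 and 715 RPKM in shCtrl cells. The groups did not overlap in either line. HMGB1 fell by 1.01 ± 0.10 in Granta-519 (log2, SE, limma, adjusted p = 0.000518), to 49.7% of the shCtrl mean. In JeKo-1 it fell by 1.90 ± 0.08 (adjusted p = 3.01e-06), to 26.7%. Its Granta-519 change was -0.26 with spike-in scaling and was not called.

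HMGB3, which in mice is linked to blood stem cell maintenance, had 43.8, 47.5 and 58.2 RPKM in shCycD1 Granta-519 cells, against 95.9, 112 and 114 RPKM in shCtrl cells. The JeKo-1 values were 7.31, 6.17 and 7.62 RPKM in shCycD1 cells, against 26.1, 25.4 and 26.5 RPKM in shCtrl cells. The third shCycD1 library of Granta-519 was the highest of its group and still well under the shCtrl libraries. HMGB3 fell by 1.10 ± 0.12 in Granta-519 (log2, SE, limma, adjusted p = 0.000812) and by 1.82 ± 0.10 in JeKo-1 (adjusted p = 7.09e-06). Its Granta-519 change was -0.36 with spike-in scaling and was not called. The pseudogene HMGB3P1 had 0.767, 0.891 and 0.548 RPKM in shCycD1 Granta-519 cells, against 1.34, 1.03 and 2.1 RPKM in shCtrl cells. Its log2 change of -0.66 was called (adjusted p = 0.0428), but not under 8 of 15 alternatives (adjusted p of 0.00479 to 0.504). Among these were leaving out shCtrl 1 (-0.70), shCtrl 3 (-0.45), shCycD1 1 (-0.69), shCycD1 2 (-0.75) or shCycD1 3 (-0.55). In JeKo-1 it was under the filter.

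HMGA1 had 305, 315 and 290.3 RPKM in shCycD1 Granta-519 cells, against 589, 547 and 522 RPKM in shCtrl cells. JeKo-1 libraries had HMGA1 at 305, 294 and 241 RPKM in shCycD1 cells, against 579.8, 547 and 483 RPKM in shCtrl cells. The third library was the lowest of its group in every case, and no groups overlapped. HMGA1 fell by 0.86 ± 0.07 in Granta-519 (log2, SE, limma, adjusted p = 0.000339) and by 0.94 ± 0.11 in JeKo-1 (adjusted p = 0.000281). Its Granta-519 change was -0.12 with spike-in scaling and was not called. The pseudogene HMGA1P7 was listed at 0 in all but 1 library.

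HMGN2 had 119, 114 and 126 RPKM in shCycD1 Granta-519 cells, against 249, 273 and 256 RPKM in shCtrl cells. In JeKo-1 cells HMGN2 had 125, 123 and 123 RPKM in shCycD1 cells, against 632, 662 and 553 RPKM in shCtrl cells. The shCycD1 libraries of JeKo-1 were nearly identical, and the shCtrl libraries of the line were more spread. HMGN2 fell by 1.11 ± 0.07 in Granta-519 (log2, SE, limma, adjusted p = 0.000187) and by 2.31 ± 0.08 in JeKo-1 (adjusted p = 1.31e-06). Its Granta-519 change was -0.37 with spike-in scaling and was not called. HMGN2P46, named as a pseudogene of HMGN2, averaged 1.59 ± 0.051 RPKM in shCycD1 and 3.37 ± 0.302 RPKM in shCtrl Granta-519 cells, and 9.76 ± 0.275 RPKM in shCycD1 and 48.9 ± 4.38 RPKM in shCtrl JeKo-1 cells (SD, n = 3 each). Its log2 changes were -0.88 (adjusted p = 0.000613) and -2.26 (adjusted p = 1.94e-06). HMG genes have many processed copies in the genome, and how the authors counted reads that match several copies is not known from the sources at hand, so values of HMGB1, HMGN2 and HMGA1 may include reads of copies.

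**Figure D2:**
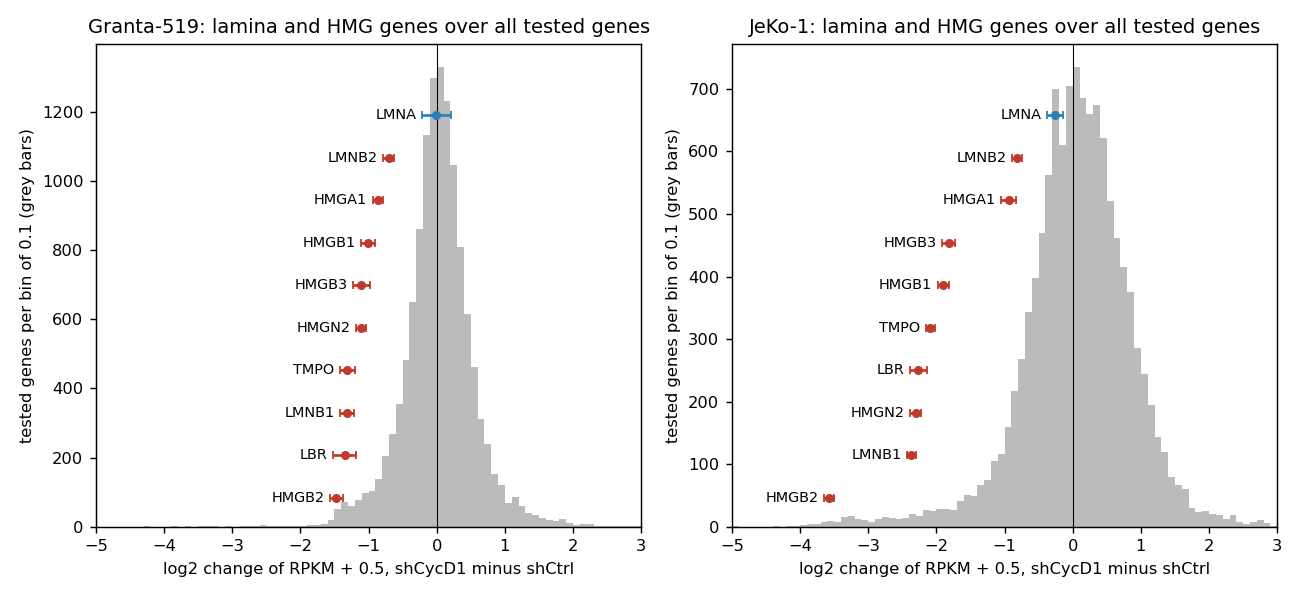
Log2 change (shCycD1 minus shCtrl, RPKM + 0.5) of the 10 genes over the histogram of all genes tested in each line, with bars of 1 SE. Red points were called and blue points were not; the height of a point has no meaning. In both lines LMNA lies at the bulk of the genes and HMGB2 farthest to the left.

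The fall differed between the lines for 7 of the 10 genes, tested in a joint fit of the 12 libraries as the Granta-519 change minus the JeKo-1 change. All 7 differences were positive, that is, the fall was smaller in Granta-519. Among 10653 genes tested, 41.9% differed and 19.3% differed with a positive sign. The difference was 2.1 ± 0.12 for HMGB2 (log2, SE, limma, adjusted p = 5.19e-07), 1.19 ± 0.11 for HMGN2 (adjusted p = 9.71e-06) and 1.05 ± 0.12 for LMNB1 (adjusted p = 5.21e-05). It was 0.92 ± 0.22 for LBR, 0.89 ± 0.13 for HMGB1, 0.78 ± 0.13 for TMPO and 0.71 ± 0.16 for HMGB3 (adjusted p of 0.000336 to 0.00646). LMNA (0.25 ± 0.25), LMNB2 (0.11 ± 0.11) and HMGA1 (0.08 ± 0.14) were not called, with adjusted p of 0.44 to 0.687. With the GC correction these 3 were called too, at 0.69, 0.55 and 0.51. With spike-in scaling LMNA was called at 1.06 and LMNB2 at 0.98, beside a median difference of 0.79 over all genes. CCND1 itself differed by 0.55 ± 0.18 in the same direction (adjusted p = 0.0306). Over the alternatives, which include the log2 reading, its JeKo-1 change ran from -2.53 to -1.67, against -1.83 in Granta-519 as deposited. The sign of the CCND1 difference is thus not firm, and its value under the log2 reading is not given here. If the JeKo-1 table is read as log2, 3 differences are still called, HMGB2 at 1.03, HMGN2 at 0.50 and LMNB1 at 0.35, so the differences of the other 4 genes depend on the natural log reading.

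A ratio between genes of a library does not depend on how the library is scaled, up to the pseudocount. On the log2 scale of RPKM + 0.5, LMNB1 over LMNA was 0.79, 1.40 and 0.89 in shCycD1 Granta-519 libraries, against 2.20, 2.65 and 2.17 in shCtrl libraries. In JeKo-1 it was 1.82, 1.65 and 1.87 in shCycD1 libraries, against 3.64, 4.0 and 4.04 in shCtrl libraries. The mean difference was -1.31 in Granta-519 and -2.11 in JeKo-1. The groups did not overlap. Within LMNB1 over LMNB2 the differences were -0.61 and -1.55, and within LMNB2 over LMNA -0.70 and -0.56. HMGB2 over HMGB1 differed by -0.46 and -1.68, and HMGB2 over LMNB1 by -0.16 and -1.21. For HMGB2 over LMNB1 the Granta-519 groups were barely apart, with shCycD1 up to 5.019 and shCtrl from 5.027. LBR over TM7SF2 differed by -2.22 and -3.35.

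These 6 ratios had p = 0.005 in a two-sided exact permutation test within lines over both lines, the smallest p the design allows (adjusted p = 0.00583 over 7 pairs). Within a single line of 3 against 3 libraries the exact permutation test cannot go below 0.1. The ratios are built from the same values as the changes given above, so they are not separate evidence. HMGB3 over HMGB1 differed by -0.10 in Granta-519 and 0.08 in JeKo-1 (exact permutation p = 0.94). In shCycD1 JeKo-1 libraries it was -4.54, -4.88 and -4.61, against -4.63, -4.92 and -4.73 in shCtrl libraries, so the groups overlapped.

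**Figure D3:**
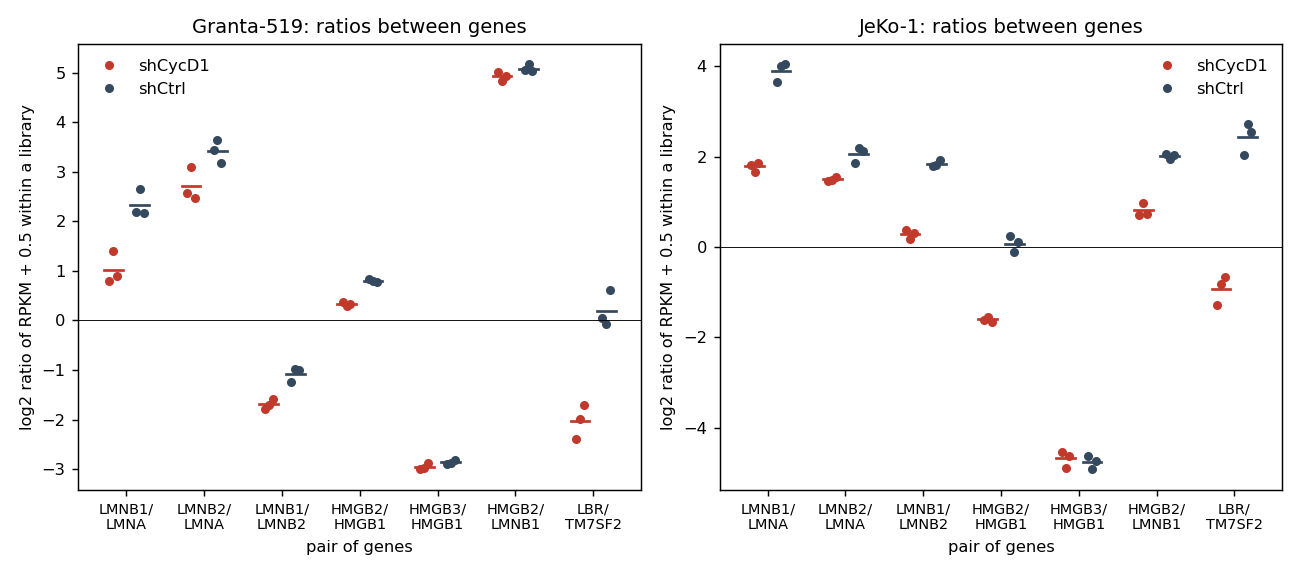
Log2 ratios (RPKM + 0.5) between pairs of genes within each library, with Granta-519 and JeKo-1 in separate panels and shCycD1 left of shCtrl for each pair. Points are libraries and bars are means (n = 3 per group); 6 of 7 pairs are lower in shCycD1 in both panels, while the groups overlap for HMGB3/HMGB1.

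Partners of the lamina did not follow a single direction. Of 22 nuclear envelope and lamina partners, 7 fell and 5 rose of 21 tested in Granta-519, and 7 fell and 12 rose of 22 tested in JeKo-1 (medians -0.10 and 0.49). With spike-in scaling 1 fell and 8 rose in Granta-519, beside 7248 risen and 157 fallen of all 12668 genes. Later counts under this scaling share that background. As deposited, 18.2% of all genes tested fell and 22.4% rose in Granta-519, and 27.8% fell and 36.7% rose in JeKo-1. Later counts of gene lists as deposited stand beside these shares. NRM, the inner membrane protein nurim, had log2 changes of -1.42 in Granta-519 and -1.84 in JeKo-1. CBX5, the heterochromatin protein HP1 alpha that binds LBR, had -0.95 and -1.88, and VRK1, a kinase of the chromatin tether BANF1, had -0.83 and -1.92. TMEM43, an inner membrane protein, rose by 1.0 and by 1.30. Adjusted p in limma of these 4 genes were between 2.36e-06 and 0.00302.

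Lamin maturation enzymes showed no common direction, with 2 risen and 1 fallen of 5 in Granta-519 and 1 risen and 2 fallen of 5 in JeKo-1. ICMT, which methylates the farnesylated end, fell by 0.53 in Granta-519 cells and fell by 0.42 in JeKo-1 cells (limma, adjusted p = 0.0017 and 0.00354), the first value being 0.21 with spike-in scaling. ZMPSTE24, the protease that frees mature lamin A, rose by 0.40 in Granta-519 (adjusted p = 0.0421) and fell by 0.46 in JeKo-1 (adjusted p = 0.0327). The first call was lost on leaving out shCtrl 1 (0.34), shCtrl 2 (0.32), shCycD1 1 (0.39), shCycD1 2 (0.45) or shCycD1 3 (0.36), and the second on leaving out shCtrl 2 (-0.34), shCtrl 3 (-0.43), shCycD1 1 (-0.37) or shCycD1 2 (-0.47). Of 31 nucleoporins tested, 18 fell and 0 rose in Granta-519 and 22 fell and 2 rose in JeKo-1, with medians of -0.39 and -0.54. With spike-in scaling 0 fell and 5 rose in Granta-519, beside 7248 risen and 157 fallen of all 12668 genes. NUP107 had log2 changes of -0.76 and -1.40 in Granta-519 and JeKo-1, TMEM48 of -0.83 and -1.45, and NUP210 of -0.91 and -0.46.

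Other genes of the HMGA, HMGB and HMGN families were lower or did not pass the test. Of 4 tested, 2 fell in Granta-519 and 3 fell in JeKo-1. HMGA2 and HMGB4 were under the filter. HMGN1 had log2 changes of -0.56 in Granta-519 cells and -0.78 in JeKo-1 cells (limma, adjusted p = 0.00611 and 0.00012). HMGN5 fell by 0.43 and by 1.49 (adjusted p = 0.0213 and 5.52e-05), the Granta-519 call being lost without shCtrl 3 (-0.38), shCycD1 1 (-0.36) or shCycD1 2 (-0.43). With spike-in scaling both stood above 0 in Granta-519, at 0.19 and 0.23, and 2 of the 4 were called higher there. For HMGN4 the Granta-519 value was 0.04 (adjusted p = 0.775), and in JeKo-1 it fell by 0.74. Of other HMG-box genes, 5 fell and 2 rose of 14 in Granta-519, and 7 fell and 4 rose of 15 in JeKo-1. With spike-in scaling 0 fell and 7 rose in Granta-519, beside 7248 risen of all 12668 genes. As deposited, 18.2% of all genes fell and 22.4% rose in Granta-519, and 27.8% fell and 36.7% rose in JeKo-1. TCF7, a T-cell transcription factor, rose by 1.18 in Granta-519 and fell by 0.94 in JeKo-1, and the difference of 2.12 was called (adjusted p = 3.29e-06). SSRP1, a subunit of the histone chaperone FACT, fell by 0.65 and by 0.87, the first value being 0.10 with spike-in scaling.

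Genes that mark dividing cells fell as well. Of 10 such genes, 10 fell in Granta-519 and 10 fell in JeKo-1, with medians of -1.40 and -3.68, and 10 of 10 fell less in Granta-519. With spike-in scaling 7 fell and 0 rose in Granta-519, with a median of -0.66. The log2 change of MKI67 was -1.45 ± 0.30 in Granta-519 and -3.80 ± 0.25 in JeKo-1. That of TOP2A was -1.51 ± 0.13 and -4.01 ± 0.09 (SE, limma, adjusted p of 5.94e-07 to 0.00845). The part of a lower share of dividing cells in the falls of the lamina and HMG genes was not tested. Among all genes passing the filter in both lines, the pattern over 12 libraries nearest to that of LMNB1 was RRM1, a ribonucleotide reductase subunit, with a root mean square difference of 0.060 on the log2 scale. The nearest to HMGB2 was TYMS, the thymidylate synthase (0.079), to HMGB1 TSN (0.049), to HMGN2 DUT, the dUTPase (0.087), to TMPO WHSC1 (0.075) and to LMNB2 PPP2R1B (0.068). LBR had PSRC1 first (0.10), then its fellow members TMPO and LMNB1 (0.14 and 0.15). LMNA had THPO at 0.11, the least close first neighbour of the 10. The genes share libraries, so likeness over libraries is a description.

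The scaling of Granta-519 decides how its changes read. Each library was also scaled by its spike-ins (synthetic transcripts added to a sample), which moved the median of all genes in Granta-519 to 0.71 and gave 7248 risen and 157 fallen genes. Relative to that median LMNB1 stood at -1.30, HMGB2 at -1.44, LMNB2 at -0.68 and LMNA at -0.03. Of the 10 genes, HMGB2 was still called lower (-0.73, adjusted p = 0.00844, over alternatives 2.07e-05 to 0.00844). LMNA was called higher (0.69, adjusted p = 0.0497, over alternatives 0.0497 to 0.989). The other 8 were not called, with LMNB1 at -0.59, LBR at -0.61, TMPO at -0.57, HMGB3 at -0.36, HMGN2 at -0.37, HMGB1 at -0.26, HMGA1 at -0.12 and LMNB2 at 0.04. In JeKo-1 the scaling moved the median of all genes to -0.03, and 9 of the 10 genes still fell.

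**Figure D4:**
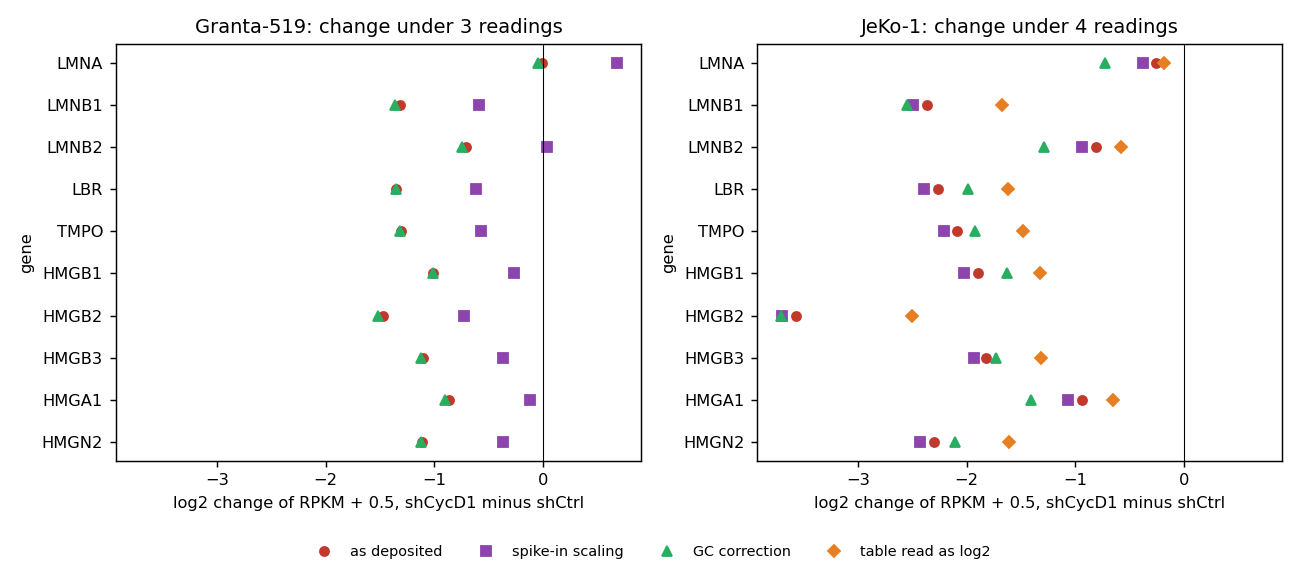
Log2 change of each gene (RPKM + 0.5, shCycD1 minus shCtrl) under 3 readings in Granta-519 and 4 in JeKo-1: as deposited, spike-in scaling, correction for GC content, and the JeKo-1 table read as log2. Spike-in scaling moves every Granta-519 point to the right, with LMNA at 0.69 and LMNB2 at 0.04 past 0; in JeKo-1 every point stays below 0.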

How the data were processed

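Per the labels' protocols, stranded mRNA libraries were made from total RNA (RNeasy). Tools and builds in the submitters' processing notes are TopHat2 2.1.1, FastQC, limma 3.9, hg19 and GRCh37. Counter, annotation and log transform are not stated in the sources used here. The authors deposited 1 table per line, titled as RPKM. As deposited, the values were taken to be natural log (RPKM + 1). In Granta-519, 83.2 to 85.1% of low values were whole multiples of a step under this reading, within a tolerance of 0.1. For base 2 it was 54.7 to 58.5%, with the genomic span as length. A fixed step would match 20% by chance, but the best of many steps was taken, so the chance level is higher. In JeKo-1 no base passed 33.1%, so its base is inferred from spike-ins, whose spread over that of Granta-519 was 0.964 with the natural log and 0.730 with base 2.

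Values were taken to log2(RPKM + 0.5), for genes at 1 RPKM or more in at least 3 of 6 libraries. Each line was fitted with limma 3.58.1 (R 4.3.3), empirical Bayes with a trend, and all 12 libraries jointly for the difference. Fold changes on this scale understate the change of low genes. Benjamini-Hochberg adjusted p under 0.05 over all genes was called. The fits were tested on simulated data. Ratios were compared by exact permutation tests. The p-values of each line rest on the spread between its own libraries. Those of the difference pool the spread within groups of both lines, and the pooled ratio test permutes labels within each line. None covers a spread between other cell lines. Alternatives were other pseudocounts, filters and scalings, library weights, a replicate block, a GC correction (GC known for 89.5% of 23708 symbols) and leaving out each library. The members and lists were chosen with earlier results of these data known. Named are the members, CCND1, the 3 genes of each list with the largest called change in each line, pseudogenes, and the 3 nearest genes to each member, not all of which are printed; 1 gene that the rule names is not reported here.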

Additional observations from a re-analysis of the deposited data

Results flagged for a closer look

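For 7 of the 10 genes the change differed between the lines by the test of the difference in the joint limma fit, with 41.9% of all 10653 genes tested differing. The difference (Granta-519 minus JeKo-1, log2) was 2.1 for HMGB2, 1.19 for HMGN2, 1.05 for LMNB1, 0.92 for LBR, 0.89 for HMGB1, 0.78 for TMPO and 0.71 for HMGB3. Genes of dividing cells differed in the same direction, with a median of 2.20 over 10 genes, and their part in these differences was not tested.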

How the results depend on the processing

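The values rest on RPKM of 3 libraries a group, with depth not settled or unknown, and on an inferred log base in JeKo-1. Of 560 member values under alternatives, 531 kept direction and side of the threshold. Of the counts, 9 members were called in Granta-519 under all alternatives but spike-in scaling (2), and 7660 genes in JeKo-1 became 3756 with spike-in scaling. Members called in the difference were 7, but 3 with the log2 reading of JeKo-1, 9 with spike-in scaling and 10 with the GC correction. With spike-in scaling 4091 of all 10653 genes differed with a positive sign and 142 with a negative sign. The cause was not tested. Same-numbered libraries had an r of 0.00554, -0.124 and 0.0331 in Granta-519. In JeKo-1 the r was 0.187, 0.0949 and 0.1025, and each library correlated best with its own number, a hint of pairing from the data that the labels do not give. Not every r was over 0.1 in either line, so the numbers were not used as pairs. With the replicate block, 4188 genes were called in Granta-519, against 5143, and 8707 in JeKo-1, against 7660, with 9, 9 and 7 members called in Granta-519, JeKo-1 and the difference.

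The sign turned in these cases. In Granta-519 LMNA was at 0.69 with spike-in scaling and 0.012 with library weights, and at -0.17 to 0.17 on leaving out a library. LMNB2 was at 0.038 with spike-in scaling. The HMGA1 difference was -0.19 with quantile normalization, -0.011 with library weights, -0.21 with the log2 reading, and -0.027 to 0.15 on leaving out a library. The LMNB2 difference was -0.12 with the log2 reading. HMGB3 over HMGB1 was 0.028 with a pseudocount of 1, and -0.047 to 0.044 on leaving out a library. Spike-in scaling in Granta-519 gave CD22 0.64, CD79B 0.35, CDKN1A 0.23, HMGN1 0.19, HMGN5 0.23, HMGXB4 0.043, ICMT 0.21, NME1 0.19, NUP155 0.17, PBRM1 0.033, RCE1 0.66, SIGLEC10 0.16, SOX11 0.31 and SSRP1 0.10. The GC correction in JeKo-1 gave FNTA 0.22 and LY96 0.18. On leaving out a library, HMGN4 in Granta-519 ran from -0.036 to 0.096, and in JeKo-1 FNTA ran from -0.10 to 0.031 and LY96 from -0.42 to 0.065. The cause was not tested in any of these cases.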

Other observations

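Genes that partner or sense HMGB proteins were mixed. Of those tested, 7 fell and 3 rose of 17 in Granta-519 and 6 fell and 4 rose of 14 in JeKo-1, with medians of -0.30 and -0.18. With spike-in scaling 0 fell and 6 rose in Granta-519, beside 7248 risen of all 12668 genes. As deposited, 18.2% of all genes fell and 22.4% rose in Granta-519, and 27.8% fell and 36.7% rose in JeKo-1. SET, a histone chaperone found in a complex with HMGB2, had log2 changes of -0.87 ± 0.07 in Granta-519 cells and -1.44 ± 0.07 in JeKo-1 cells (SE, limma, adjusted p = 0.000311 and 4.65e-06). NME1, a nuclease of the same complex, had changes of -0.56 and -1.05, both called, the first being 0.19 with spike-in scaling. SIGLEC10, an inhibitory B-cell receptor, fell by 0.57 in Granta-519 and rose by 0.87 in JeKo-1, and the difference of -1.43 was called (adjusted p = 3.24e-06); its Granta-519 value was 0.16 with spike-in scaling.

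Most genes of a senescence-associated list were under the filter, with 8 of 20 tested in Granta-519 and 3 in JeKo-1. In Granta-519, 3 rose and 2 fell, and in JeKo-1, 1 rose and 1 fell. With spike-in scaling 6 rose and 0 fell in Granta-519, beside 7248 risen of all 12668 genes. CDKN1A, which encodes the cell cycle inhibitor p21, averaged 158 ± 10.6 RPKM in shCycD1 and 228 ± 27.6 RPKM in shCtrl Granta-519 cells, and 3.38 ± 0.518 RPKM in shCycD1 and 13.0 ± 2.09 RPKM in shCtrl JeKo-1 cells (SD, n = 3 each). It fell by 0.52 and by 1.79 (limma, adjusted p = 0.00894 and 6.07e-05), and was at 0.23 in Granta-519 with spike-in scaling. GLB1, the source of lysosomal beta-galactosidase, rose by 0.47 and by 0.62 (adjusted p = 0.0104 and 0.000907). IL8 rose by 1.25 in Granta-519 and was not tested in JeKo-1.

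B-cell markers were not of 1 direction, with 4 of 7 fallen in Granta-519 and 3 risen and 1 fallen of 7 in JeKo-1. With spike-in scaling 0 fell and 2 rose in Granta-519, with a median of 0.35, against -0.40 as deposited. The median of all genes under that scaling was 0.71. As deposited, 18.2% of all genes fell and 22.4% rose in Granta-519, and 27.8% fell and 36.7% rose in JeKo-1. CD22 was at -0.10 in Granta-519 and rose by 1.83 in JeKo-1. Of markers of other cells, COL1A1 rose by 0.48 in Granta-519, and CD3G by 0.28 and KRT8 by 0.35 in JeKo-1. These 3 calls were lost on leaving out some libraries: for COL1A1 shCtrl 1 (0.47) or 3 (0.43), for CD3G any but shCtrl 2 (0.22 to 0.32), and for KRT8 shCtrl 1 (0.36), shCtrl 2 (0.31) or shCycD1 3 (0.28).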
